A study of Mus musculus with 43 samples.

Results

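Tunicamycin was set against its solvent DMSO in mouse embryonic fibroblasts (MEF) that carried a control siRNA. The 8 libraries of this comparison were chosen by their column labels, out of 43 samples in the series. Another 4 groups are used beside them: tunicamycin and DMSO with a siRNA against Son (4 libraries each), and tunicamycin and DMSO with a control guide RNA (sgRNA) for CRISPR activation (3 libraries each). The 4 tunicamycin and 4 DMSO libraries with control siRNA are called A to D within each group, after the letters of the deposited columns. The dose and duration of tunicamycin, the sequence of the control siRNA, the origin of the fibroblasts and any pooling are not stated in the labels used here. Polyadenylated RNA was read from stranded libraries. Values were deposited as FPKM, that is fragments per kilobase of transcript after division by library size. Its total number of reads per library is unknown, so no counting interval can be given.

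Tunicamycin resembles a nucleotide sugar and blocks Dpagt1, the enzyme that starts the lipid-linked sugar chain later placed on asparagines of proteins entering the endoplasmic reticulum (ER). Glycoproteins then fold poorly, and the unfolded protein response (UPR) is set off through 3 sensors of the ER membrane. Ern1 (IRE1) splices the RNA of the factor Xbp1 and also cuts other RNAs. Eif2ak3 (PERK) phosphorylates the initiation factor eIF2, which slows translation while favouring the factor Atf4, a course called the integrated stress response. Atf6 is cleaved in the Golgi and becomes a transcription factor for ER chaperones. Fibroblasts are cells that secrete large amounts of collagen and other glycoproteins.

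Summed FPKM ran from 393764 to 407545 per tunicamycin library and from 413954 to 424082 per DMSO library. Between 15116 and 15592 genes were above 0 in tunicamycin libraries, and between 15457 and 15576 in DMSO libraries. Tunicamycin library D stood apart from the other 3 of its group. Genes raised at least 2-fold were on average 1.91 higher in library D than the DMSO mean on the log2(FPKM + 1) scale, and 1.60 to 1.64 higher in libraries A to C. Genes lowered at least 2-fold averaged −1.55 in library D and −1.11 to −1.17 in libraries A to C. The counts of genes changed at least 2-fold and of some lists are also given without library D. Other list counts could shift by a few genes without it, and they and most log2 differences are given with it only. Of 12 fibroblast markers, 7 reached the level needed for testing, and all 7 fell. Their summed level was 1444 to 1861 FPKM in tunicamycin and 2924 to 3003 FPKM in DMSO. Thy1 and Lum were under 0.1 FPKM in all 8 libraries, and Pdgfra averaged 0.592 ± 0.0884 FPKM in tunicamycin and 0.824 ± 0.111 FPKM in DMSO (SD, n = 4 each). In bulk RNA, fewer cells of a type and less RNA per cell cannot be told apart. Of 7 marker lists of other cell types, those of endothelial cells, skeletal muscle and pluripotent cells had no tested member, and their summed levels were at most 1.13 FPKM in tunicamycin and 1.08 FPKM in DMSO. The 5 neural markers, 4 of them tested, summed to 36.4 to 41.4 FPKM in tunicamycin and 53.4 to 63.9 FPKM in DMSO, with Tubb3 raised, Nes and 1 other lowered and Gfap under 0.1 FPKM in all 8 libraries. The 6 epithelial markers summed to 8.13 to 11.2 FPKM in tunicamycin and 11.5 to 14.7 FPKM in DMSO, with 1 tested and lowered. The 6 immune markers summed to 9.70 to 11.5 FPKM in tunicamycin and 13.1 to 14.2 FPKM in DMSO, with 2 tested and both lowered, and Ptprc under 0.1 FPKM in all 8 libraries. The 4 markers of fat cells summed to 5.51 to 8.35 FPKM in tunicamycin and 9.62 to 11.7 FPKM in DMSO, with 1 tested and lowered, and Adipoq under 0.1 FPKM in all 8 libraries. Son, the target of the other siRNA, stood at 36.5, 35.0, 37.0 and 35.5 FPKM in tunicamycin and at 42.6, 43.1, 44.9 and 43.3 FPKM in DMSO.

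Tunicamycin moved a large part of the measured transcriptome, mostly by small amounts. Of 10883 genes with a mean of at least 1 FPKM over the 16 siRNA libraries, 7504 (69.0%) passed the test, a limma fit on log2(FPKM + 1) with a Benjamini-Hochberg adjusted p under 0.05. Of all tested genes 2891 (26.6%) rose and 4613 (42.4%) fell. The median gene changed by −0.06 on the log2 scale, and the median size of a called change was 0.26 against a median standard error of 0.044. Calls under 1.5-fold made up 6536 of the 7504. In all, 221 genes (2.03%) rose at least 2-fold and 83 (0.763%) fell at least 2-fold, both on this scale, which understates the change of low genes. Without library D, 204 genes rose and 57 fell by at least 2-fold. The split of all calls into raised and lowered depends on the scaling. It was 3612 to 3807 under median-ratio scaling, 3319 to 4120 after quantile normalization and 3706 to 3668 with the trend in transcript length removed. Median-ratio scaling moved the median of all genes to −0.009. Counts of gene lists below are read against the 26.6% and 42.4% of all genes. The tunicamycin and DMSO groups did not overlap in 6598 of the 10883 tested genes, so a lack of overlap named below is common to most genes. In the text, "rose" and "fell" mean that the gene passed this test, and log2 differences are tunicamycin minus DMSO.

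**Figure D1:**
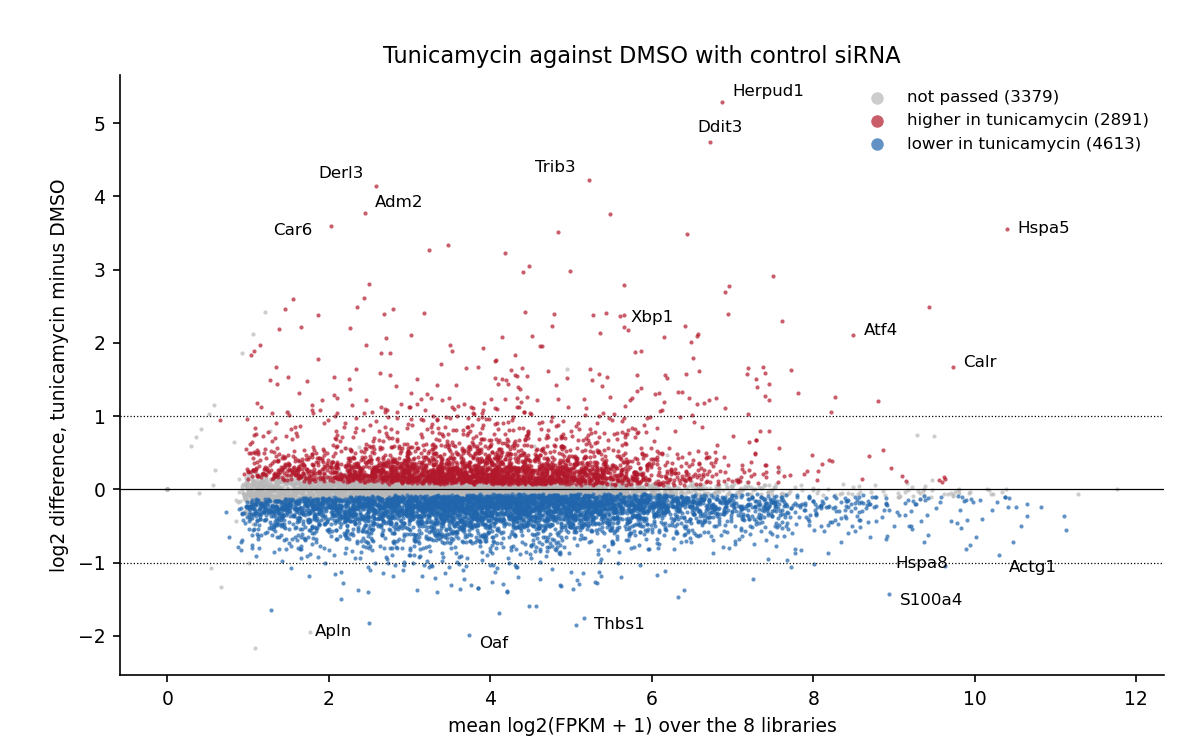
All 10883 tested genes by their mean log2(FPKM + 1) over the 8 libraries (x axis) and their log2 difference, tunicamycin minus DMSO (y axis). Coloured points passed the test, with raised genes above and lowered genes below the line at 0, and named points are genes described in the text. The cloud is narrow around 0, and the widest changes are upward, to 5.28 for Herpud1.

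The largest rises included genes of ER quality control and of the integrated stress response. Herpud1, a membrane protein of ER-associated degradation (chromosome 8, 94386438 to 94395377), changed most of all tested genes that had a mean of at least 5 FPKM in their higher group. The ranking took only called genes whose groups did not overlap, and it passed over predicted genes and pseudogenes. Herpud1 was followed in that order by Ddit3, Trib3, Derl3, Adm2, Chac1, Car6, Hspa5, Slc6a9, Sdf2l1, Acot2 and Stbd1. Their upstream sequences are given first, because short motifs read by UPR factors are known in some of them. RefSeq (build GRCm38.p6) gave a window of 250 bases before to 50 after the start site for 8328 of the 10883 tested genes, matched by symbol. Each stretch below lies before the start site and has the matched motif in capitals with 30 bases on either side, or fewer where the window of upstream bases ends.

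The ER stress element (ERSE), bound by cleaved Atf6 with the CCAAT factor NF-Y, was searched as CCAAT and CCACG with 9 free bases between them. The shorter ERSE-II was searched as ATTGGNCCACG. The amino acid response element (CARE), bound by Atf4 with a C/EBP partner, was searched as TGATGCAA. All were searched on both strands, and overlap with other motifs was not removed, so an ERSE also counts as a CCAAT. The Hspa5 stretch is chr2:34771995-34772073 on the plus strand and holds an ERSE. The Derl3 stretch is chr10:75893212-75893290 on the plus strand and holds the ERSE on the opposite strand. The Herpud1 stretch is chr8:94386347-94386417 on the plus strand and holds an ERSE-II. A CARE was also found for Herpud1, outside this stretch. The Chac1 stretch is chr2:119351019-119351086 on the plus strand and holds the CARE on the opposite strand.
Hspa5: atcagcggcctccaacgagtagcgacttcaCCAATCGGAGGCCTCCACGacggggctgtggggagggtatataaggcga
Derl3: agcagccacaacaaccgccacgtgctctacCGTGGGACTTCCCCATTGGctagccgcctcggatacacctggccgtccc
Herpud1: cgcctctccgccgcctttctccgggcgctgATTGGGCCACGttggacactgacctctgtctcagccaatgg
Chac1: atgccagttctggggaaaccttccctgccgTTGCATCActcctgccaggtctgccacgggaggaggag

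An exact ERSE stood in the window of 14 tested genes (0.168% of 8328) and in 10 of the 162 windows of genes raised at least 2-fold (6.17%). Those 10 were Hspa5, Hsp90b1, Calr, Pdia6, Creld2, Derl3, Dnajc3, Syvn1, Alg12 and Zfp57. The other 4 were Canx (log2 difference 0.79), Hnrnpa3 (0.29), Pan2 (0.23) and Adcy3 (−0.19). Alg12 and Creld2 lie head to head on chromosome 15, and the same ERSE, chr15:88819520-88819538, lies in both windows. CARE stood in 55 windows (0.66%) and in 18 of the 162 (11.1%). Among the 18 were Herpud1, Atf3, Chac1, Fgf21, Nupr1, Slc7a11, Vldlr, Jdp2 and the tRNA synthetase genes Aars, Iars, Tars and Yars. Of the 49 windows of genes lowered at least 2-fold, 1 held a CARE (Gadd45g). ERSE-II stood in 8 windows (0.0961%) and in 2 of the 162 (1.23%), Herpud1 and Dnajb11. The element bound by Xbp1, UPRE, was searched as TGACGTGG and stood in 94 windows (1.13%) and in 2 of the 162 (1.23%). CCAAT alone stood in 3628 windows (43.6%), in 91 of the 162 (56.2%) and in 23 of the 49 (46.9%). In the windows of Ddit3 and Trib3 the letters of ERSE, ERSE-II and CARE were not found. A match is a description of these letters, not of a bound site.

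Herpud1 stood at 681, 688, 701 and 849.5 FPKM in tunicamycin and at 17.4, 18.1, 17.0 and 18.3 FPKM in DMSO. Derl3, a channel component of ER-associated degradation, stood at 20.6, 20.8, 23.6 and 33.8 FPKM in tunicamycin and at 0.431, 0.402, 0.562 and 0.346 FPKM in DMSO. Both genes were high in every tunicamycin library, with library D highest. Their groups did not overlap, which was a condition of the ranking. Adm2, a secreted peptide hormone, stood at 19.1, 18.8, 18.2 and 20.4 FPKM in tunicamycin and at 0.362, 0.571, 0.387 and 0.600 FPKM in DMSO. Car6, a secreted carbonic anhydrase, stood at 12.6, 9.83, 13.0 and 18.7 FPKM in tunicamycin and at 0.265, 0.206, 0.109 and 0.139 FPKM in DMSO. Derl3, Adm2 and Car6 were thus near absent in DMSO, and their means were 56.7-fold, 39.9-fold and 75.3-fold higher in tunicamycin. Each met the condition of 5 FPKM through tunicamycin only, so a lower level in DMSO is built into this choice. Enzymes of metabolism were also among the genes that rose most. Acot2, a mitochondrial acyl-CoA thioesterase, stood at 32.3, 31.8, 33.5 and 40.1 FPKM in tunicamycin and at 2.43, 2.56, 2.28 and 2.70 FPKM in DMSO. Stbd1, a glycogen-binding membrane protein, stood at 27.2, 26.2, 26.0 and 34.4 FPKM in tunicamycin and at 2.32, 1.97, 1.99 and 1.90 FPKM in DMSO. Acot1, a close copy of Acot2, also rose (1.67), and reads that fit both copies may have been shared between them.

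By the same ranking, the 12 genes that fell most were led by Oaf, which encodes a secreted protein. Oaf stood at 6.30, 5.45, 6.22 and 4.80 FPKM in tunicamycin and at 25.9, 24.9, 25.4 and 25.8 FPKM in DMSO (log2 difference −1.99). Apln, the apelin hormone, stood at 2.64, 2.01, 1.89 and 1.54 FPKM in tunicamycin and at 7.73, 10.2, 10.8 and 9.91 FPKM in DMSO (−1.83). Angptl2, a secreted angiopoietin-like glycoprotein, stood at 18.3, 19.2, 18.4 and 11.6 FPKM in tunicamycin and at 60.9, 63.1, 63.2 and 63.5 FPKM in DMSO (−1.86). In each of these, tunicamycin library D was the lowest. The others were Thbs1 (−1.76), Ctgf (−1.68), Gas1 (−1.60), P3h4 (−1.59), Scara3 (−1.50), Fbln2 (−1.47), S100a4 (−1.43), Cxcl5 (−1.41) and the ligand Bmp4 (−1.40). S100a4, a small calcium-binding protein of migrating fibroblasts, was the most abundant, with 301 ± 42.3 FPKM in tunicamycin and 808 ± 49.0 FPKM in DMSO (SD, n = 4 each).

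Hspa5 (BiP, the main ER chaperone of the Hsp70 family) became the most abundant gene of the table. It stood at 4526, 4199, 4301 and 5677 FPKM in tunicamycin and at 405, 368, 411 and 392 FPKM in DMSO. FPKM is scaled by length, so genes can be ranked within a group. In tunicamycin the translation factor Eef1a1 (mean 3467 FPKM), Tpt1 (2444), Ppia (1943) and Lgals1 (1841) came next. In DMSO the order was Eef1a1 (3451 FPKM), Lgals1 (2710.1), Tpt1 (2544), Ppia (2493) and the ribosomal protein gene Rpl41 (1959.9). Lgals1 and Ppia fell by 0.56 and 0.36 on the log2 scale, the call of Ppia being lost after quantile normalization, while Eef1a1 and Tpt1 did not pass the test.

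Among the sensors and factors of the UPR, 18 of 24 rose and 2 fell, with a median log2 difference of 0.78. All 3 sensors rose. Atf6 stood at 40.9, 39.5, 40.4 and 51.3 FPKM in tunicamycin and at 17.7, 16.8, 18.2 and 17.6 FPKM in DMSO (log2 difference 1.24). Ern1 stood at 15.2, 15.1, 15.3 and 17.6 FPKM in tunicamycin and at 8.25, 9.24, 8.08 and 8.74 FPKM in DMSO (0.81). Eif2ak3 stood at 13.3, 12.4, 13.0 and 15.4 FPKM in tunicamycin and at 6.75, 8.16, 7.66 and 7.78 FPKM in DMSO (0.76). For each sensor the groups did not overlap, and library D was the highest tunicamycin library. Several factors downstream also rose. Xbp1 stood at 109, 109, 107 and 116 FPKM in tunicamycin and at 19.6, 21.1, 20.9 and 20.7 FPKM in DMSO (2.36). The gene table does not separate spliced from unspliced Xbp1 RNA. Atf4 stood at 748, 705, 733 and 802 FPKM in tunicamycin and at 172, 173, 174 and 173 FPKM in DMSO (2.10). Its partners and targets among the factors rose with it: Atf3 by 2.23, Atf5 by 2.00, Cebpb by 0.99, Cebpg by 1.63 and Nfil3 by 0.90. Ddit3 (CHOP), the factor linked to stress-induced death, stood at 543, 521, 509.6 and 599 FPKM in tunicamycin and at 19.2, 22.1, 16.5 and 20.1 FPKM in DMSO.

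The 2 phosphatase subunits that undo the phosphorylation of eIF2 differed. Ppp1r15a (GADD34), the stress-induced subunit, stood at 129, 118, 129 and 151 FPKM in tunicamycin and at 17.5, 17.98, 18.7 and 18.1 FPKM in DMSO (log2 difference 2.79). Ppp1r15b, the constitutive subunit, rose by 0.10, with means of 31.7 FPKM in tunicamycin and 29.4 FPKM in DMSO. The other eIF2 kinases did not rise. Eif2ak2 (PKR), itself induced by interferon, fell (−0.38), and Eif2ak4 (GCN2) fell (−0.13). Eif2ak1 (HRI) had a log2 difference of −0.03 and did not pass the test. Wfs1, an ER membrane protein induced by stress, rose by 1.93. Among the Atf6-like factors, Creb3l2 rose (0.60) and Creb3 rose by 0.08, a call that was lost without DMSO library C or tunicamycin library A or C. Creb3l1 (−0.05), Atf6b (0.04) and Mbtps1 (0.01), a protease that cleaves Atf6, did not pass the test. The other protease of Atf6, Mbtps2, rose by 0.18, and Traf2, an adaptor of Ern1, rose by 0.20.

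**Figure D2:**
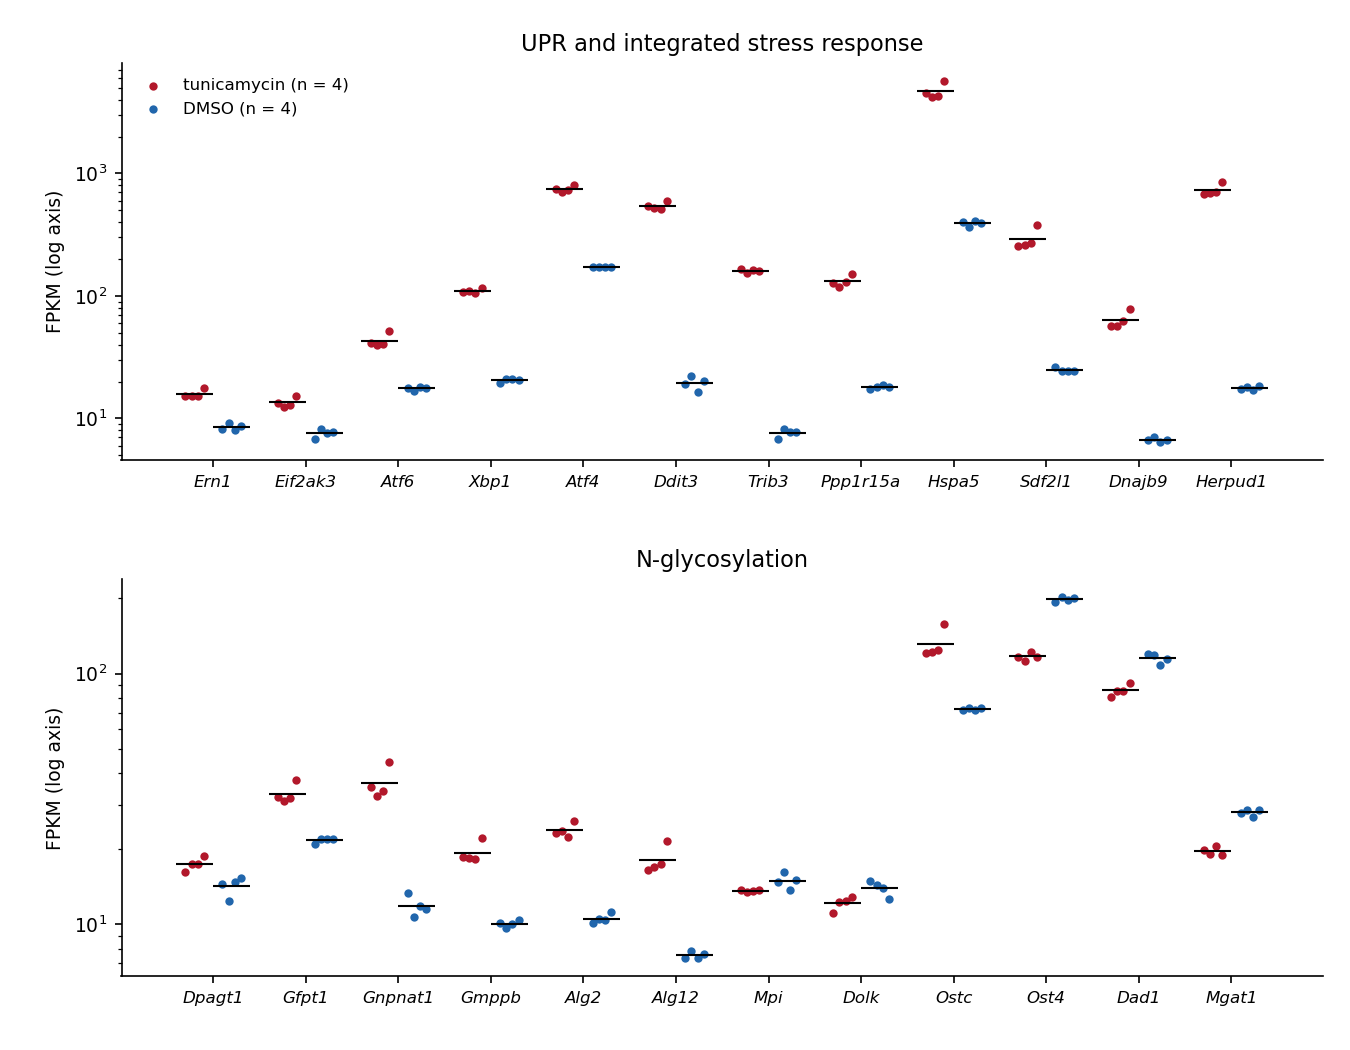
FPKM (log axis) in each library of 12 UPR genes (upper panel) and 12 genes of N-glycosylation (lower panel), with tunicamycin libraries left and DMSO libraries right for each gene, and a bar at each group mean. Ddit3 stands at 509.6 to 599 in tunicamycin and 16.5 to 22.1 in DMSO, while Dpagt1, the enzyme that tunicamycin blocks, stands at 16.2 to 18.8 in tunicamycin and 12.4 to 15.3 in DMSO.

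The enzymes of N-glycosylation moved unevenly. Of 32 genes for the lipid-linked sugar precursor, its dolichol carrier and its sugar nucleotides, 18 rose and 7 fell, with a median log2 difference of 0.16. Dpagt1 itself, the target of tunicamycin, stood at 16.2, 17.5, 17.4 and 18.8 FPKM in tunicamycin and at 14.5, 12.4, 14.8 and 15.3 FPKM in DMSO (log2 difference 0.28). The groups did not overlap, and the means differed 1.22-fold. A few steps rose far more. Gnpnat1, which acetylates glucosamine on the way to the sugar nucleotide that Dpagt1 uses, stood at 35.4, 32.5, 34.1 and 44.3 FPKM in tunicamycin and at 13.3, 10.7, 11.9 and 11.5 FPKM in DMSO (1.54). Alg12, a mannosyltransferase, stood at 16.5, 17.0, 17.5 and 21.5 FPKM in tunicamycin and at 7.33, 7.85, 7.32 and 7.62 FPKM in DMSO (1.16). Alg2, another mannosyltransferase, stood at 23.2, 23.7, 22.3 and 25.9 FPKM in tunicamycin and at 10.1, 10.5, 10.4 and 11.2 FPKM in DMSO (1.10). Alg12 and Creld2, an ER chaperone gene that shares the ERSE window with it, rose by 1.16 and 2.91.

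The route from fructose phosphate to the first sugar nucleotide rose at every step but by different amounts. Gfpt1 and Gfpt2, which start it, rose by 0.59 and 0.51, Gnpnat1 by 1.54, Pgm3 by 0.24 and Uap1 by 0.12. On the side of mannose, Gmppb (0.87) and Pmm1 (0.33) rose, Mpi fell (−0.12, a call lost without DMSO library B, with the length trend removed and under median-ratio scaling) and Pmm2 (−0.06) did not pass the test. Gmppa rose by 0.11, a call lost without any DMSO library, without tunicamycin library C or D, without 1 of the Son siRNA libraries, with array weights, with no filter and in a fit of the 2 groups alone. The dolichol enzymes Nus1 (0.39) and Dhdds (0.38) rose, while Dolk fell (−0.18) and Srd5a3 (−0.08) did not pass the test. Among the further transferases, Alg5 (0.30), Alg10b (0.26) and Alg3 (0.23) rose and Alg1 fell (−0.13, a call lost with the length trend removed and under median-ratio scaling). Alg6 (0.01), Alg8 (0.06), Alg13 (−0.08) and Mpdu1 (−0.01) did not pass the test. The call of Alg9 (−0.10) was lost without DMSO library D or tunicamycin library C and under all 3 other scalings, namely median-ratio, quantile and removal of the length trend. That of Alg11 (0.10) was lost without library D of either group and in a fit of the 2 groups alone. That of Alg14 (−0.14) was lost without tunicamycin library B or C, under median-ratio scaling, with the length trend removed and with no filter. The list had 16 raised and 7 lowered members without tunicamycin library D, 20 and 3 under median-ratio scaling, and 21 and 2 with the length trend removed. Of the dolichol phosphate mannose synthase, Dpm2 fell by 0.21 and Dpm3 by 0.26 (a call lost with the length trend removed) while Dpm1 (0.19) did not pass the test.

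The oligosaccharyltransferase, which moves the finished sugar chain onto the protein, rose in 8 of 12 subunits and fell in 4. Under each of the 3 other scalings 8 rose and 2 fell. Ostc stood at 121, 122, 125 and 157 FPKM in tunicamycin and at 71.8, 72.8, 71.4 and 73.3 FPKM in DMSO (log2 difference 0.84). Magt1 rose by 0.81, Krtcap2 by 0.50, and the catalytic subunits Stt3b and Stt3a by 0.46 and 0.44. The small subunit Ost4 went the other way, with 117, 113, 123 and 116 FPKM in tunicamycin and 193, 202, 196 and 201 FPKM in DMSO (−0.75). Dad1 also fell (−0.42). In trimming and lectin quality control 13 of 16 genes rose. Among them were the lectin chaperones Calr (1.67) and Canx (0.79), Edem1 (1.52), which marks misfolded glycoproteins for removal, and Uggt1 (0.32), which puts glucose back on them. Enzymes of the next compartment fell. Of 15 tested genes of Golgi N-glycan processing 11 fell and 3 rose, with a median of −0.26, and Mgat1, which starts complex glycans, had 19.7 ± 0.739 FPKM in tunicamycin and 28.0 ± 0.860 FPKM in DMSO (SD, n = 4 each).

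ER chaperones took up 2.32% of all FPKM in tunicamycin (2.16% to 2.75% between libraries) and 0.469% in DMSO. Of 22 tested genes 17 rose and 4 fell. Sdf2l1, a stress-induced partner of BiP, stood at 258, 263, 270.1 and 378 FPKM in tunicamycin and at 26.1, 24.3, 24.5 and 24.2 FPKM in DMSO (log2 difference 3.49). Dnajb9, a co-chaperone that restrains Ern1, stood at 57.2, 57.0, 62.3 and 78.2 FPKM in tunicamycin and at 6.73, 7.05, 6.41 and 6.73 FPKM in DMSO (3.05). Hsp90b1 (2.49), Hyou1 (2.39), Dnajc3 (1.88) and Dnajb11 (1.25) rose as well, and tunicamycin library D was the highest in each. The collagen chaperone Fkbp10 fell by 0.29. Disulfide enzymes split, with 11 of 20 raised and 7 lowered. Pdia4 (2.30), Pdia6 (1.63) and Pdia3 (1.21) rose, and P4hb, which also serves collagen hydroxylation, rose by 0.29. Ero1lb, an oxidase that passes electrons from the isomerases to oxygen, stood at 12.7, 13.4, 12.6 and 16.8 FPKM in tunicamycin and at 1.62, 1.79, 1.98 and 1.83 FPKM in DMSO (2.40). Its relative Ero1l rose by 1.53, while the ER peroxidase Gpx8 fell by 0.80.

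ER-associated degradation rose in 13 of 22 tested genes and fell in 2, but under each of the 3 other scalings 17 rose and 0 fell. Besides Herpud1 and Derl3, Sel1l and the ubiquitin ligase Syvn1 (HRD1) with which it forms the retrotranslocation complex rose by 2.40 and 2.38. Genes of protein entry into the ER rose in 17 of 24 cases with small sizes, the highest being Sec61a1 (0.68), the pore itself. Of the coats and tethers between ER and Golgi 23 of 34 rose and 6 fell. The COPII cargo adaptor Sec24d stood at 60.0, 57.7, 62.4 and 78.6 FPKM in tunicamycin and at 38.4, 38.3, 38.6 and 40.0 FPKM in DMSO (0.71). ER calcium genes did not move as a group, with 4 of 15 raised and 7 lowered. Atp2a2 (SERCA2), the pump that fills the ER with calcium, stood at 241, 235, 243 and 309.9 FPKM in tunicamycin and at 100.05, 92.0, 96.2 and 96.8 FPKM in DMSO (1.40). Nucb2, a calcium-binding protein, rose by 1.55. Stim2, a sensor of ER calcium, stood at 4.87, 4.61, 4.85 and 4.99 FPKM in tunicamycin and at 10.6, 10.7, 10.7 and 10.6 FPKM in DMSO (−1.0). The DMSO libraries of Stim2 lay within 10.6 to 10.7 FPKM and the groups did not overlap.

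**Figure D3:**
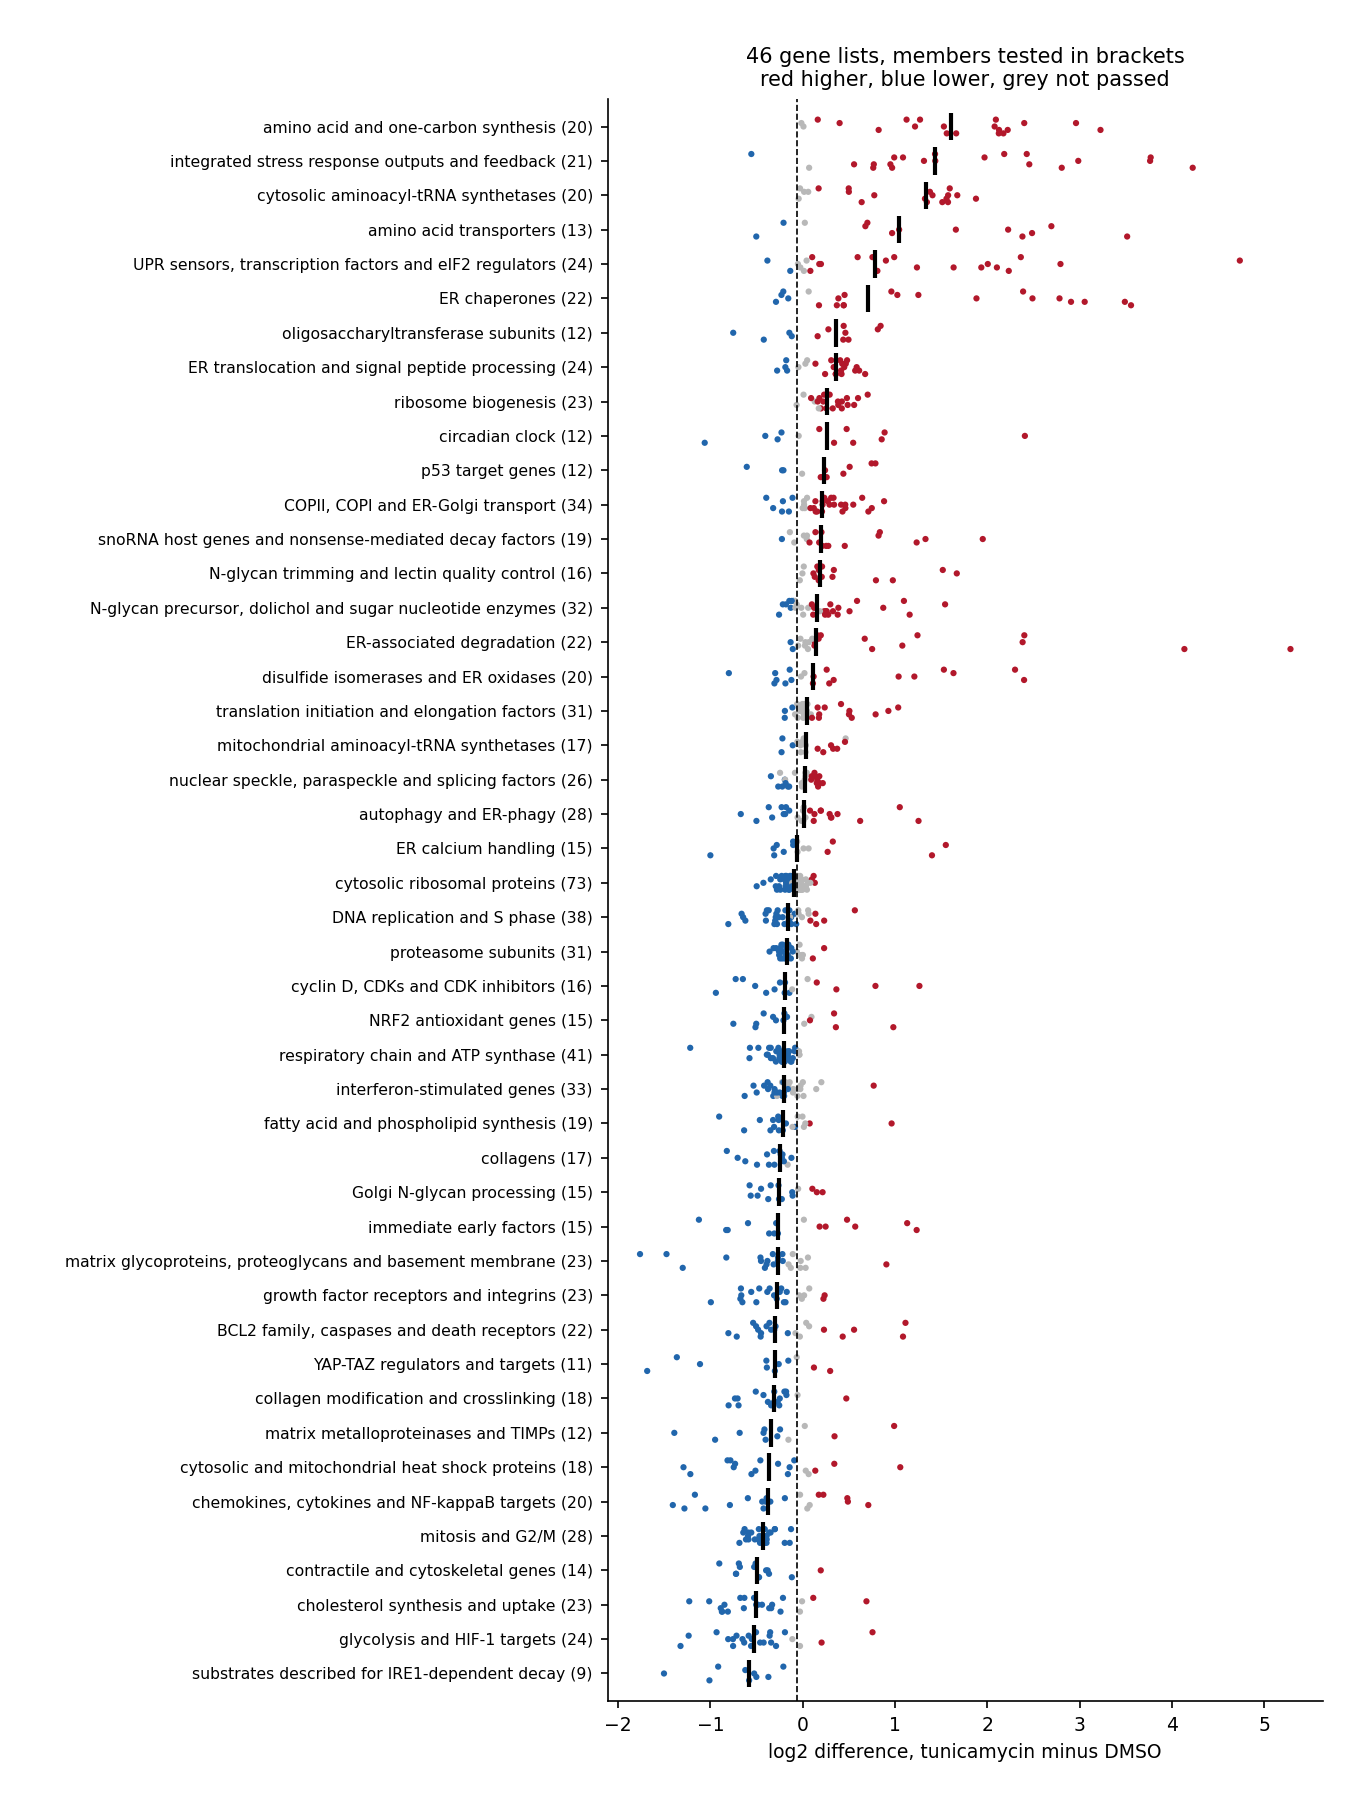
Log2 difference, tunicamycin minus DMSO, of every tested member of the 46 gene lists (1 point a gene), ordered by the list's median (bar). The dashed line is the median of all 10883 genes, −0.06. Lists of amino acid supply and ER folding lie to the right, and lists of matrix, cell cycle, glycolysis and cholesterol to the left.

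Genes that supply and charge amino acids rose together. Of the outputs of the integrated stress response 19 of 21 tested genes rose and 1 fell (Gadd45b, −0.56), with a median log2 difference of 1.43. Trib3, a pseudokinase that feeds back on Atf4, stood at 164, 154, 162 and 159.7 FPKM in tunicamycin and at 6.81, 8.16, 7.79 and 7.78 FPKM in DMSO. Chac1, an enzyme that degrades glutathione, stood at 161, 155, 172 and 169 FPKM in tunicamycin and at 11.3, 12.1, 9.96 and 11.4 FPKM in DMSO. Fgf21, a stress hormone that was almost silent in DMSO, stood at 5.86, 4.68, 5.56 and 5.76 FPKM in tunicamycin and at 0.135, 0.221, 0.168 and 0.183 FPKM in DMSO. In these 3 genes library D was not apart from the other tunicamycin libraries. Sesn2 rose by 2.43, Nupr1 by 1.31 and Eif4ebp1, a repressor of cap-dependent translation, by 1.44.

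Amino acid and one-carbon synthesis rose in 18 of 20 tested genes, with a median of 1.61. Cth, which makes cysteine, stood at 52.3, 49.97, 50.9 and 67.4 FPKM in tunicamycin and at 5.30, 5.22, 4.58 and 4.75 FPKM in DMSO (3.23). Gpt2, the mitochondrial alanine transaminase, stood at 54.8, 55.3, 55.3 and 67.1 FPKM in tunicamycin and at 6.38, 7.21, 6.44 and 6.28 FPKM in DMSO (2.96). The serine pathway rose from its first enzyme on: Phgdh by 1.27, Psat1 by 1.22 and Psph by 2.22. The mitochondrial folate enzymes that use serine followed, with Shmt2 at 1.66, Mthfd2 at 2.09 and Aldh1l2 at 2.40. Asns, asparagine synthetase, rose by 2.12. Among 13 amino acid transporters 10 rose and 2 fell. The glycine carrier Slc6a9 stood at 86.7, 88.0, 91.6 and 119 FPKM in tunicamycin and at 7.85, 7.73, 6.70 and 7.51 FPKM in DMSO (3.51). Slc3a2, the shared heavy chain of several exchangers, rose by 2.69 and its cystine partner Slc7a11 by 2.48. Slc38a4 (−0.50) and the lysosomal Slc36a1 (−0.21) fell.

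The 2 sets of tRNA-charging enzymes parted. Of 20 cytosolic synthetases 16 rose, with a median of 1.34, led by Wars (1.88), Gars (1.67), Nars (1.59) and Tars (1.58). Gars stood at 284, 277, 280.1 and 345 FPKM in tunicamycin and at 95.2, 89.7, 90.6 and 91.9 FPKM in DMSO. Of 17 mitochondrial synthetases 6 rose and 3 fell, with a median of 0.03, beside −0.06 for all genes. Nars2 rose by 0.46 and Aars2 fell by 0.23. Gars makes the cytosolic and the mitochondrial form from a single gene and was counted as cytosolic.

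Translation machinery moved little. Of 31 initiation and elongation factors 12 rose and 3 fell with a median of 0.045, and 17 or 18 rose under the other scalings. Eif2s2, the beta subunit of eIF2, was the exception in size, at 206, 202, 198 and 228 FPKM in tunicamycin and at 105, 96.8, 104 and 99.1 FPKM in DMSO (1.03). Of 73 cytosolic ribosomal protein genes 3 rose and 32 fell (44 fell without tunicamycin library D), with a median of −0.09. This direction hangs on the scaling, since quantile normalization gave 25 raised and 15 lowered and removal of the length trend gave 30 raised and 5 lowered. Median-ratio scaling gave 8 raised and 20 lowered. The genes that build ribosomes rose, 19 of 23 with a median of 0.26. Rrp12 stood at 16.4, 15.6, 15.7 and 18.6 FPKM in tunicamycin and at 11.02, 8.40, 9.94 and 9.85 FPKM in DMSO (0.70), and the snoRNP protein Nop58 rose by 0.60. Noncoding hosts of small nucleolar RNAs, whose spliced RNAs are substrates of nonsense-mediated decay, were listed together with decay factors. Snhg12, such a host, stood at 49.9, 49.7, 43.7 and 49.4 FPKM in tunicamycin and at 14.5, 10.8, 10.6 and 11.2 FPKM in DMSO (1.95). Snhg1 rose by 1.33 and Snhg5 by 1.23, while Upf1, the helicase of nonsense-mediated decay, fell by 0.23. Of the 19 tested members 13 rose and 1 fell, with a median of 0.20.

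Proteasome subunits fell slightly in 23 of 31 cases and rose in 2, with a median of −0.17, but with the length trend removed 16 fell and 6 rose, with a median of −0.08. Psma2 had 128 ± 1.11 FPKM in tunicamycin and 164 ± 6.93 FPKM in DMSO (SD, n = 4 each, −0.36). Cytosolic heat shock genes fell as well. Of 18 cytosolic and mitochondrial heat shock genes 13 fell and 3 rose. Hspa8, the constitutive cytosolic Hsp70, stood at 766, 727, 728 and 656 FPKM in tunicamycin and at 1332, 1178, 1282 and 1267 FPKM in DMSO (−0.81). The inducible Hspa1a (−1.22) and Hspa1b (−1.29) fell further, but they are nearly identical copies between which reads may have been split. The mitochondrial chaperones went the other way, Hspa9 by 1.06 and Hspd1 by 0.34. Hspa9 stood at 431, 399, 409.7 and 485 FPKM in tunicamycin and at 220.4, 189, 214 and 203 FPKM in DMSO. Lonp1, the main protease of the mitochondrial matrix, stood at 131, 123, 129.9 and 158 FPKM in tunicamycin and at 56.2, 55.4, 58.8 and 55.8 FPKM in DMSO (1.24).

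Autophagy genes split evenly, 12 of 28 raised and 9 lowered. The cargo receptor Sqstm1 (p62) stood at 464, 442, 464 and 529.5 FPKM in tunicamycin and at 196, 196, 198 and 201 FPKM in DMSO (1.25), and Tex264, a receptor for digestion of the ER, fell by 0.67. Among NRF2 antioxidant genes 9 of 15 fell and 4 rose. Hmox1, heme oxygenase, rose by 0.98 and the glutathione transferase Gstm1 fell by 0.75. In the list of BCL2 proteins, caspases and death receptors 13 of 22 tested genes fell and 5 rose. Casp4 (1.11) and Bbc3 (PUMA, 1.09) rose, while Bmf fell by 0.80 and Casp12, a caspase of the ER, by 0.46. Bbc3 stood at 8.39, 9.10, 8.25 and 8.65 FPKM in tunicamycin and at 3.33, 4.05, 3.49 and 3.24 FPKM in DMSO. Bmf stood at 2.11, 2.34, 2.07 and 1.25 FPKM in tunicamycin and at 3.94, 4.73, 4.16 and 3.57 FPKM in DMSO. Of 12 tested p53 targets 8 rose and 3 fell, with Cdkn1a at 0.79, Trp53inp1 at 0.75 and Sesn1 at −0.61.

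RNAs described elsewhere as cut by Ern1 fell, all 9 of them, with a median of −0.58. With the length trend removed 8 fell, and with control sgRNA 7 fell and 1 rose (Pdgfrb). Scara3, a scavenger receptor, stood at 1.88, 1.70, 1.75 and 1.25 FPKM in tunicamycin and at 6.09, 6.57, 6.60 and 6.57 FPKM in DMSO (−1.50). Bloc1s1, a subunit of a lysosome transport complex and the best known such RNA, stood at 32.8, 32.1, 34.5 and 31.4 FPKM in tunicamycin and at 67.7, 64.7, 64.7 and 70.5 FPKM in DMSO (−1.01). Hgsnat, a lysosomal enzyme, stood at 7.65, 8.07, 8.28 and 8.12 FPKM in tunicamycin and at 16.2, 15.4, 15.3 and 17.2 FPKM in DMSO (−0.92). Col6a1, also a member of the collagen list, fell by 0.62, and the groups did not overlap in any of these 4. FPKM does not separate decay from lower transcription.

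Cell cycle genes fell. All 28 genes of mitosis and G2/M fell, by 0.13 to 0.69 on the log2 scale (27 of 28 without tunicamycin library D). Cdk1, the mitotic kinase, stood at 55.1, 49.0, 54.3 and 49.0 FPKM in tunicamycin and at 85.8, 81.6, 83.8 and 84.2 FPKM in DMSO (−0.69). Of 38 genes of DNA replication and S phase 27 fell and 5 rose. Ccne1 fell by 0.81, while Cdc6, a loading factor of replication origins, stood at 29.3, 28.9, 28.4 and 31.7 FPKM in tunicamycin and at 18.9, 19.7, 20.4 and 19.6 FPKM in DMSO (0.56). The 3 D cyclins moved apart. Ccnd2 stood at 32.1, 30.6, 31.5 and 38.4 FPKM in tunicamycin and at 14.1, 12.3, 13.2 and 13.0 FPKM in DMSO (1.26). Ccnd1 stood at 14.03, 11.7, 12.9 and 11.2 FPKM in tunicamycin and at 31.6, 19.9, 25.8 and 23.1 FPKM in DMSO (−0.94). Ccnd3 fell by 0.73. Ccnd1 was the more abundant of Ccnd1 and Ccnd2 in every DMSO library and the less abundant in every tunicamycin library.

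Genes of the matrix and of the cytoskeleton fell. Of 17 tested collagen genes 16 fell, with a median of −0.25. Col1a1 stood at 529, 489, 529 and 446 FPKM in tunicamycin and at 635, 750.0, 685 and 738 FPKM in DMSO (−0.49). Col1a2 was below the level needed for testing. Collagen crosslinking enzymes fell in 16 of 18 cases, Lox by 0.80, and 15 of 23 matrix glycoproteins fell. Thbs1, a matrix protein that regulates cell adhesion, stood at 22.5, 18.6, 21.2 and 12.8 FPKM in tunicamycin and at 62.2, 66.9, 65.1 and 64.5 FPKM in DMSO (−1.76). Fbln5, an elastic fibre protein, was the 1 member that rose, with 2.33, 2.37, 2.22 and 3.07 FPKM in tunicamycin and 0.875, 0.902, 0.725 and 0.938 FPKM in DMSO (0.91). Among proteases of the matrix and their inhibitors 8 of 12 fell and 2 rose. Timp3, an inhibitor, stood at 11.6, 10.6, 11.2 and 8.50 FPKM in tunicamycin and at 29.7, 28.3, 27.6 and 30.2 FPKM in DMSO (−1.39), and Mmp19, a protease, rose by 0.99.

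Of 14 tested contractile and cytoskeletal genes 13 fell, with a median of −0.49. Actg1 stood at 974, 884, 988 and 839 FPKM in tunicamycin and at 1747, 1658, 1692 and 1783 FPKM in DMSO (−0.90). Actb fell by 0.72, and Zyx, a focal adhesion protein, rose by 0.20. YAP-TAZ targets fell with them (8 of 11 list members, 2 raised), Ctgf by 1.68 and Cyr61 by 1.11. Of 23 tested growth factor receptors and integrins 17 fell and 2 rose. Itga3 stood at 17.7, 17.6, 17.8 and 13.1 FPKM in tunicamycin and at 36.6, 30.8, 34.5 and 32.9 FPKM in DMSO (−0.99), Fgfr2 fell by 0.67 and Egfr rose by 0.24. These lists share the fall of the fibroblast markers given above, whose part in it was not tested. Some markers, Col1a1 and Col3a1 among them, are also members of the collagen list, so these falls partly count the same genes.

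Most members of the lists of lipid synthesis, glycolysis and respiration fell. Cholesterol synthesis and uptake fell in 19 of 23 tested genes. Mvd, an enzyme of cholesterol synthesis that rose, stood at 25.2, 23.8, 26.3 and 31.2 FPKM in tunicamycin and at 15.7, 17.3, 15.0 and 16.2 FPKM in DMSO (0.69). In fatty acid and phospholipid synthesis 12 of 19 fell and 2 rose, with Scd2 at −0.63 and the choline kinase Chka at 0.96. Glycolysis and HIF-1 targets fell in 20 of 24 cases and rose in 2. The lactate exporter Slc16a3 fell by 1.32, while Hk2, a hexokinase, stood at 20.7, 19.2, 19.9 and 22.3 FPKM in tunicamycin and at 11.5, 11.7, 11.9 and 11.8 FPKM in DMSO (0.76). Respiratory chain genes fell by small amounts in 36 of 41 cases, but with the length trend removed 22 fell and 2 rose. Uqcrh, a hinge protein of complex III, was the exception in size, at 103, 107, 100.4 and 87.1 FPKM in tunicamycin and at 241, 224, 239.8 and 223 FPKM in DMSO (−1.22).

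Signalling genes split. Among immediate early factors 6 of 15 tested genes rose and 8 fell. Klf4 stood at 27.4, 25.7, 27.6 and 26.7 FPKM in tunicamycin and at 10.5, 11.7, 10.4 and 10.7 FPKM in DMSO (1.23), and Myc stood at 74.6, 70.6, 75.0 and 76.7 FPKM in tunicamycin and at 35.8, 29.6, 35.2 and 33.0 FPKM in DMSO (1.13). Fosl2 (−1.12) and Jun (−0.83), which form the factor AP-1, fell. Of 20 tested chemokines, cytokines and NF-κB targets 12 fell and 5 rose. Ccl2 stood at 159, 146, 165 and 119 FPKM in tunicamycin and at 285, 312, 303 and 318 FPKM in DMSO (−1.05), and Cxcl12 fell by 1.28. Relb (0.71) and Nfkb2 (0.49), which form the dimer of the noncanonical branch of NF-κB, rose. Circadian genes rose in 7 of 12 cases and fell in 4. The clock repressor Ciart stood at 18.4, 18.1, 19.5 and 23.4 FPKM in tunicamycin and at 1.66, 3.45, 3.77 and 3.16 FPKM in DMSO (2.41), Per2 rose by 0.86 and Bhlhe40 fell by 1.06. Genes of nuclear speckles and splicing moved little, 10 of 26 raised and 7 lowered, the widest change being that of Sfpq (−0.34).

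The same drug contrast was also measured in cells with Son siRNA. The difference of responses, control siRNA minus Son siRNA, passed the test for 183 of 10883 genes (1.68%), 93 positive and 90 negative, and 2071 had an unadjusted p under 0.05. This count rests on single libraries. It was 322 without DMSO library B of control siRNA and 43 to 79 without DMSO library A, C or D of control siRNA. Leaving out a single tunicamycin library of control siRNA gave 136 to 253 (233 without library D). Leaving out a single Son siRNA library gave 24 to 107, except for tunicamycin library C (193). With Son siRNA 2840 of 10883 genes (26.1%) rose and 4474 (41.1%) fell. All 221 genes raised at least 2-fold with control siRNA also rose with Son siRNA, with a median of 1.49 in control siRNA and 1.31 in Son siRNA. All 83 lowered at least 2-fold also fell, with medians of −1.18 in control siRNA and −0.98 in Son siRNA. These members were chosen on the control siRNA contrast, so their medians there carry that choice. Among ER genes the differences were positive for Ero1lb (2.40 in control siRNA and 1.92 in Son siRNA), Dnajb9 (3.05 in control siRNA and 2.59 in Son siRNA) and Ern1 (0.81 in control siRNA and 0.46 in Son siRNA), with limma adjusted p of 0.0259, 0.0329 and 0.0295. Bcat2, which starts the breakdown of branched amino acids, rose by 1.13 in control siRNA and 0.62 in Son siRNA (difference 0.51, limma adjusted p = 0.0187). Ccnd1 fell by 0.94 in control siRNA, against −0.18 in Son siRNA (−0.76, adjusted p = 0.0295). Gdnf, a neurotrophic factor, fell by 0.25 in control siRNA and had 0.19 in Son siRNA (−0.44, adjusted p = 0.0187). The differences of Bcat2 and Gdnf passed the test without any single library. Those of Ero1lb, Dnajb9, Ern1 and Ccnd1 were lost in 6, 9, 8 and 8 of the 16 fits that left out 1 library, with adjusted p up to 0.0724.

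The control sgRNA libraries gave the same drug contrast in other cells of the series. Xist, the RNA of X inactivation, averaged 32.4 FPKM in tunicamycin and 27.8 FPKM in DMSO with control siRNA. It averaged 0.00396 FPKM in tunicamycin and 0.00297 FPKM in DMSO with control sgRNA, so both sets of cells differ in more than the carrier of the control. What each difference owes to the cells, to the carrier or to the treatment cannot be told apart. With control sgRNA 4228 of 11129 genes (38.0%) rose and 2526 (22.7%) fell, and under median-ratio scaling 3083 rose and 3636 fell. Of the 221 genes raised at least 2-fold with control siRNA, 217 also rose with control sgRNA, with a median of 1.10 there and 1.49 with control siRNA. Of the 83 lowered at least 2-fold, 80 also fell, with a median of −0.75 there and −1.18 with control siRNA. All these genes were chosen on the control siRNA contrast, so their medians with control siRNA carry that choice. Over 10803 genes the 2 sets of log2 differences had a Pearson correlation of 0.84, which is across genes and only describes them. The difference of responses, control siRNA minus control sgRNA, passed the test for 3853 genes (34.6%), 645 positive and 3208 negative. Under median-ratio scaling 2065 genes passed, 1290 positive and 775 negative, so the direction of the bulk depends on the scaling.

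**Figure D4:**
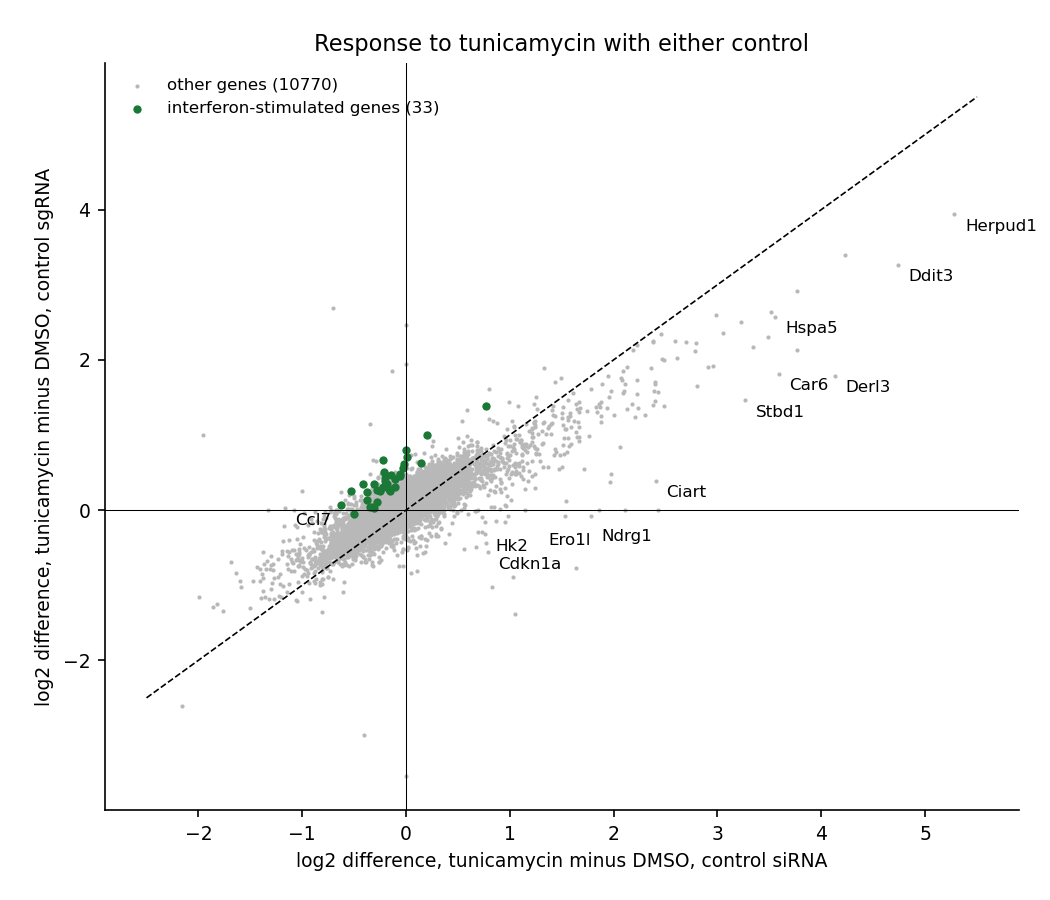
Log2 difference, tunicamycin minus DMSO, with control siRNA (x axis, 4 libraries each) and with control sgRNA (y axis, 3 libraries each) for 10803 genes tested in both fits. The dashed line marks equal responses. Derl3, Ciart, Ndrg1 and Cdkn1a lie far below the line, and the 33 interferon-stimulated genes (coloured) lie above it.

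Among protein-coding genes with higher responses in control siRNA, the differences were widest for Derl3 (4.13 with control siRNA and 1.79 with control sgRNA), Ciart (2.41 with control siRNA and 0.39 with control sgRNA) and Ndrg1 (1.79 with control siRNA and −0.07 with control sgRNA). Their differences were 2.345, 2.02 and 1.86, followed by Stbd1 (difference 1.80) and Car6 (difference 1.77), with limma adjusted p of 7.96e-05 or less. Ndrg1, a stress-responsive gene, stood at 159.7, 162, 158 and 198 FPKM in tunicamycin and at 44.2, 50.8, 48.9 and 49.1 FPKM in DMSO with control siRNA. It stood at 106, 107 and 102 FPKM in tunicamycin and at 97.7, 118 and 116 FPKM in DMSO with control sgRNA. The groups did not overlap with control siRNA and overlapped with control sgRNA, where the DMSO libraries were already about as high as those in tunicamycin. Ero1l rose by 1.53 with control siRNA and had −0.08 with control sgRNA (difference 1.61). Hk2 rose by 0.76 with control siRNA and fell by 0.32 with control sgRNA (difference 1.07). Cdkn1a, the cell cycle inhibitor p21, rose by 0.79 with control siRNA and fell by 0.56 with control sgRNA (difference 1.35). It stood at 75.8, 79.5, 79.2 and 82.3 FPKM in tunicamycin and at 40.6, 51.1, 44.0 and 46.5 FPKM in DMSO with control siRNA, against 43.7, 41.9 and 43.4 FPKM in tunicamycin and 55.8, 68.1 and 68.2 FPKM in DMSO with control sgRNA. In the other direction, Ccl7 fell by 1.17 with control siRNA and had 0.03 with control sgRNA (difference −1.20). Pdgfrb, the receptor of platelet-derived growth factor, fell by 0.50 with control siRNA and rose by 0.19 with control sgRNA (difference −0.69).

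Interferon-stimulated genes responded differently with the 2 controls. With control siRNA 17 of 33 fell, 1 rose and 15 did not pass the test, with a median of −0.20, beside 42.4% lowered among all genes. Under median-ratio scaling 12 fell and 3 rose, after quantile normalization or with the length trend removed 12 fell and 2 rose, with array weights 11 fell and 2 rose, and without tunicamycin library D 11 fell and 1 rose. The share that fell with control siRNA was thus not far from that of all genes. With control sgRNA 26 of 33 rose and the other 7 did not pass the test, with a median of 0.34, beside 38.0% raised among all genes (22 rose with median-ratio scaling, and as many with the length trend removed). The difference of responses was negative and passed the test in all 33, with a median of −0.55, beside 28.8% of all genes. It passed in 27 under median-ratio scaling, 32 after quantile normalization, 28 with the length trend removed and 31 to 33 with any single library left out. Isg15, a ubiquitin-like protein, stood at 486, 434, 456 and 409.5 FPKM in tunicamycin and at 509, 540.3, 493 and 512 FPKM in DMSO with control siRNA (−0.20, a call lost without tunicamycin library D and under every other scaling). With control sgRNA it stood at 654, 707 and 619.8 FPKM in tunicamycin and at 524, 485 and 510.2 FPKM in DMSO (0.38). The groups did not overlap in either system, with tunicamycin low in siRNA cells and high in sgRNA cells. Oasl2 fell by 0.31 with control siRNA and rose by 0.35 with control sgRNA, and the GTPase Igtp fell by 0.53 with control siRNA and rose by 0.26 with control sgRNA. Mx1 was the 1 member raised in both, by 0.77 with control siRNA and 1.38 with control sgRNA, and its difference was not called under median-ratio scaling or with the length trend removed. Summed over the 33 genes, control siRNA libraries held 2064 to 2597 FPKM in tunicamycin and 2596 to 2867 FPKM in DMSO. Control sgRNA libraries held 3401 to 3859 FPKM in tunicamycin and 2795 to 2920 FPKM in DMSO. The DMSO ranges of both systems thus overlapped, and the tunicamycin ranges did not.

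**Figure D5:**
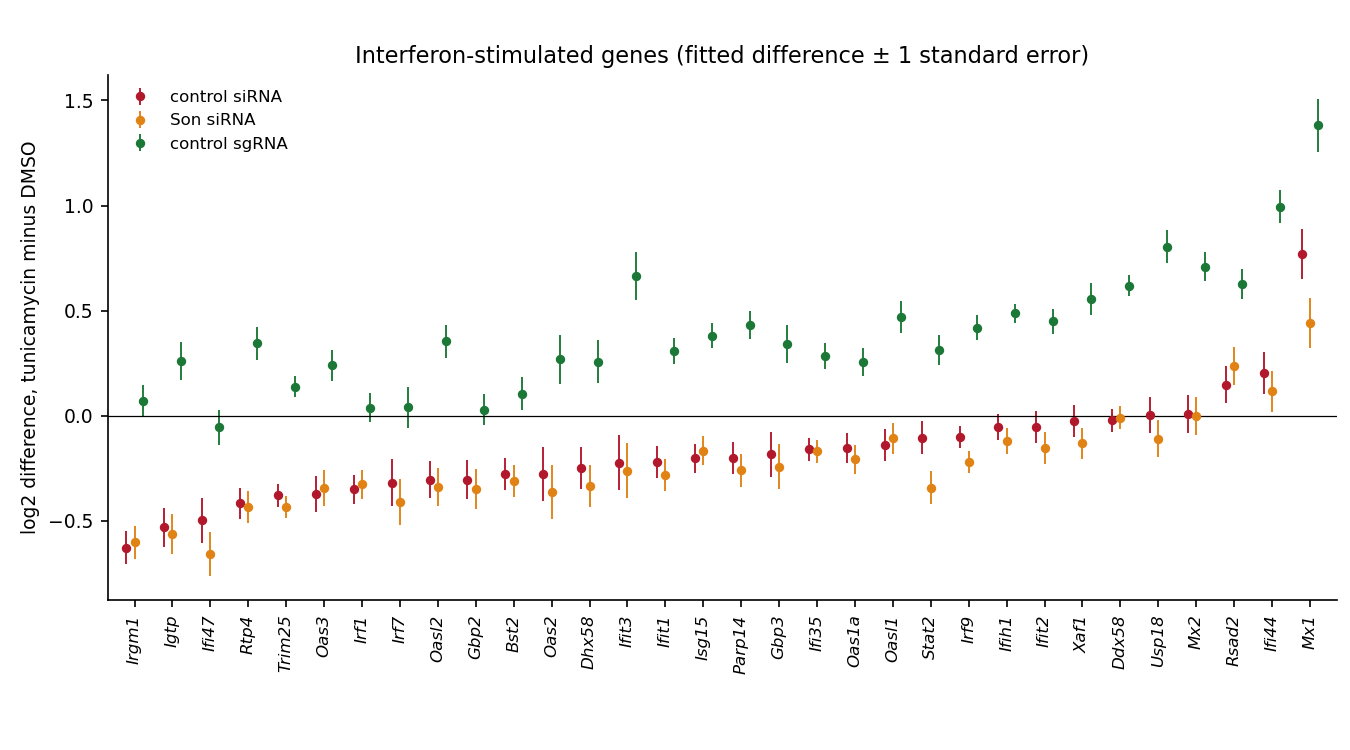
Log2 difference, tunicamycin minus DMSO, of 32 of the 33 interferon-stimulated genes with control siRNA, with Son siRNA and with control sgRNA. Points are fitted differences and lines are ± 1 standard error. With control sgRNA the points lie from −0.06 to 1.38, and with control siRNA from −0.63 to 0.77, lower for each of the 32 genes.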

How the data were processed

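RNA was extracted with the PureLink RNA Mini kit and polyadenylated RNA was made into TruSeq Stranded mRNA libraries, per the labels' protocols. The submitters' processing notes name mm10, Trimmomatic, Trim Galore, HISAT2, Salmon and Cufflinks without versions or roles. The authors deposited FPKM per gene symbol, already scaled to length and library size, so sequencing depth is unknown. Of the FPKM columns 22 were used and 6 were not; a TPM table was not used here. For 275 symbols on 807 lines the line of highest mean was kept, and 27 entries turned into dates were left out. The letters A to D cannot be tied to the replicate numbers of the labels. Nothing says that libraries are separate cultures, so p-values measure the spread between these samples only.

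Genes with a mean of at least 1 FPKM were fitted on log2(FPKM + 1) with limma 3.58.1 in R 4.3.3, with a term per group over 16 siRNA libraries and a mean trend. Responses were compared by interaction terms, that with control sgRNA in a fit of its own over 14 libraries. On simulated data the test recovered 196 of 200 changes of 0.5 and 198 of 200 changes of 1 among 10883 genes. It also called 10 and 6 unchanged genes. Simulated noise was independent between genes and no library was shifted, so effects of scaling and of library D are not covered. Alternatives were pseudocounts of 0.1 and 0.5, other filters and scalings, array weights, removal of the length trend, a replicate block, fits of fewer groups, and each library left out. The members and gene lists were chosen with earlier results of these data known. Named genes are all members of the UPR and N-glycan precursor lists, the 12 genes that rose most and the 12 that fell most, up to 4 leading and 2 opposing members of each list, the leading differences of responses, the 5 most abundant genes and a few fixed genes. The genes that rose or fell most needed a mean of at least 5 FPKM in the higher group and no overlap of groups. Another 50 named genes were chosen after their values were seen. A few genes that this rule takes in are not reported here. Promoter windows are RefSeq's (GRCm38.p6); gene coordinates are those of GENCODE on GRCm38.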

Additional observations from a re-analysis of the deposited data

Results flagged for a closer look

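In 76 of 480 checks (15.8%), each of 1 gene named in the text in 1 group of 4 libraries, the gap between the farthest library and its nearest neighbour, over the group's range, was above Dixon's 95% critical value for 4 values. Chance flags about 1 group in every 20. Of the 76, 55 were tunicamycin library D, the library that also stood farthest from DMSO over the genes changed at least 2-fold.

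Library D was far above the other tunicamycin libraries for ER and UPR genes. The values in FPKM were Atf5 (202), Atf6 (51.3), Atp2a2 (309.9), Calr (1845), Canx (233), Creld2 (649), Dnajc3 (140.0), Edem1 (62.3), Ern1 (17.6), Ero1l (84.0), Herpud1 (849.5), Hsp90b1 (1958), Hyou1 (364), Mbtps2 (8.07), Pdia3 (781), Pdia4 (543), Pdia6 (447), Sdf2l1 (378), Sec61a1 (228), Sel1l (127), Serp1 (181) and Wfs1 (36.1). It was also far above them for the glycosylation genes Gmppb (22.1), Ostc (157), Pmm1 (46.6) and Stt3a (154). The same held for genes of amino acid supply and charging, namely Aldh1l2 (78.8), Asns (232), Cth (67.4), Eif4ebp1 (322), Gars (345), Gpt2 (67.1), Iars (138), Nars2 (2.84), Psat1 (303), Psph (130.3), Slc6a9 (119), Slc7a11 (13.6), Xpot (77.2) and Yars (105). Further genes were Casp4 (22.9), Chka (21.8), Cpox (57.3), Ndrg1 (198), Stbd1 (34.4), Vldlr (11.3) and Zfp57 (11.3). Library D was far below the other tunicamycin libraries for Angptl2 (11.6), Fbln2 (35.9), Fgfr2 (3.79), Gadd45b (23.8), Gas1 (7.90), Itga3 (13.1), Scd2 (133) and Slc38a4 (14.1).

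Among the other tunicamycin libraries, A was apart for Psma2 (129 FPKM), B for Mpdu1 (24.2) and C for Pan2 (11.8), Snhg12 (43.7) and Snai1 (8.64). In DMSO, library A was apart for Gdnf (8.56), Psat1 (121), Sdf2l1 (26.1), Snhg12 (14.5), Angptl2 (60.9), Gfpt1 (21.01) and Scara3 (6.09). Library B was apart for Gpt2 (7.21), Mx1 (5.47), Alg8 (11.8), Eef1a1 (3348), Fkbp10 (85.9) and Ppia (2369). Library C was apart for Dpm1 (1.81), and library D for Rpl41 (2018) and Asns (45.8).

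The response to tunicamycin differed between control siRNA and Son siRNA for 183 genes and between control siRNA and control sgRNA for 3853 genes, by limma tests of the difference itself. Against Son siRNA the differences named in the text were Ero1lb (0.47), Dnajb9 (0.47), Ern1 (0.35), Bcat2 (0.51), Ccnd1 (−0.76) and Gdnf (−0.44). Against control sgRNA they were Derl3 (2.345), Ciart (2.02), Ndrg1 (1.86), Stbd1 (1.80), Car6 (1.77), Ero1l (1.61), Cdkn1a (1.35), Hk2 (1.07), Pdgfrb (−0.69), Ccl7 (−1.20), Isg15 (−0.58), Oasl2 (−0.66), Igtp (−0.79) and Mx1 (−0.61).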

How the results depend on the processing

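The count of genes called in tunicamycin against DMSO stayed within 1.5 times under every setting run, and ranged from 7155 to 7567 when single libraries were left out, with 2762 to 2927 raised and 4332 to 4659 lowered. Past 2-fold, leaving out single libraries gave 204 to 233 raised and 57 to 90 lowered genes, and a pseudocount of 0.1 gave 145 lowered genes. The lowest lowered count was without tunicamycin library D. The difference from Son siRNA, 183 genes, moved most. It was 62 with no filter, 299 under median-ratio scaling, 313 after quantile normalization, 386 with array weights, 294 with the length trend removed and 24 to 322 with single libraries left out. The difference from control sgRNA was 2065 under median-ratio scaling, 2186 after quantile normalization, 2150 with the length trend removed and 2902 to 3889 with single libraries left out. The causes were not tested.

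The column letters gave no sign of pairing, since the deviations of same-lettered tunicamycin and DMSO libraries correlated at 0.172, 0.013, −0.189 and −0.11 for A to D. With the letter as a replicate block, 7590 genes were called in the main comparison and 285 differed from Son siRNA.

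Of 240 genes named, 11 lost their call and 8 gained one under some setting (Eef1a1, Tpt1, Mpdu1, Atf6b, Mbtps1, Srd5a3, Alg8 and Dpm1). Another sign was seen in 5, none of which had a call as reported. Eef1a1 had −0.305 after quantile normalization, which passed the test, −0.015 with array weights and from −0.017 to 0.021 when single libraries were left out. Tpt1 had 0.035 after quantile normalization and 0.086 with the length trend removed, which passed the test, and Eif2ak1 had 0.014 with the length trend removed and 0.03 under median-ratio scaling. Mpdu1 had 0.041 under median-ratio scaling, 0.008 after quantile normalization, 0.11 with the length trend removed, which passed the test, and from −0.033 to 0.024 when single libraries were left out. Alg6 ran from −0.012 to 0.028 when single libraries were left out.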

Other observations

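Several genes outside the 46 lists also moved by 2-fold or more, and were chosen here after their values were seen. Stard5, a cholesterol-binding protein, stood at 14.8, 12.6, 14.9 and 19.5 FPKM in tunicamycin and at 1.78, 2.09, 2.01 and 1.94 FPKM in DMSO. Rab39b, a small GTPase of vesicle traffic, stood at 12.1, 10.6, 11.5 and 15.8 FPKM in tunicamycin and at 1.30, 1.20, 0.950 and 1.32 FPKM in DMSO. Cpox, an enzyme of heme synthesis, stood at 43.03, 43.4, 42.1 and 57.3 FPKM in tunicamycin and at 10.6, 10.01, 9.67 and 9.94 FPKM in DMSO. In these 3 genes every tunicamycin library was above every DMSO library. Xpot, which exports tRNA from the nucleus, rose by 1.64 on the log2(FPKM + 1) scale, Nfe2l1, a factor for proteasome genes, by 1.21, and Serp1, a protein of the ER translocon, by 1.18.

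Transcription factors of connective tissue were among the lowered genes outside the lists. Sox9, a factor of cartilage, stood at 7.37, 6.95, 7.31 and 5.28 FPKM in tunicamycin and at 17.9, 19.4, 18.2 and 19.8 FPKM in DMSO (−1.37). Scx, a factor of tendon, stood at 21.6, 22.8, 23.2 and 15.7 FPKM in tunicamycin and at 44.7, 51.1, 43.3 and 45.5 FPKM in DMSO (−1.12). Id1, a target of BMP signalling, fell by 1.03, Snai1 by 1.02, the phosphatase Dusp1 by 1.34 and the metallothionein Mt1 by 1.02.

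The filter on the mean over 16 libraries left out 159 genes with a mean of at least 1 FPKM in tunicamycin or DMSO of control siRNA. With no filter, 50 of them were called as raised and 54 as lowered, beside 3160 raised and 4959 lowered among all 17971 genes tested. A choice by the higher group favours genes that differ between the groups. Klf15, a factor of metabolism, stood at 1.31, 1.39, 1.39 and 2.23 FPKM in tunicamycin and at 0.0250, 0.0351, 0.0247 and 0.0336 FPKM in DMSO. Tsc22d3, a target of glucocorticoids, stood at 2.02, 1.81, 1.86 and 2.33 FPKM in tunicamycin and at 0.295, 0.383, 0.228 and 0.277 FPKM in DMSO. Atp2a3, the relative of the calcium pump Atp2a2, stood at 1.68, 1.32, 1.96 and 2.22 FPKM in tunicamycin and at 0.303, 0.209, 0.202 and 0.159 FPKM in DMSO. Each reached the level of 1 FPKM through tunicamycin only, so a lower level in DMSO is built into this choice.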
